A study of Mus musculus with 4 samples.

Results

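The comparison described here is that of diabetic with nondiabetic kidneys from sham-operated mice. It rests on 2 of the 4 arrays of a study of renal gene expression in OVE26 mice, chosen by their labels: the array of diabetic sham mice and the array of control sham mice. Each array was hybridised with RNA pooled from 4 female mice, so 1 value per gene stands for each group. The diabetic mice were OVE26 transgenic mice on the FVB/NJ background, and the nondiabetic mice were control littermates of that background. Both groups had a sham operation at 2 months of age and were killed at 4.5 months, 10 weeks after surgery. The kidneys were perfused with buffered saline, and a frozen portion of each was used, so fewer cells of a type and less RNA per cell cannot be told apart. The other 2 arrays, of diabetic and nondiabetic mice from which 1 kidney had been removed, share no RNA with the sham arrays, and their values are given beside the sham values.

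OVE26 mice express a calmodulin transgene in pancreatic beta cells, which leads to insulin deficiency and high blood glucose from early life. The diabetic kidney filters more glucose than it can easily take up, and proximal tubule cells meet this load through their glucose transporters. Lack of insulin also removes a stimulus of lipid synthesis and a brake on fatty acid oxidation in many tissues. Injured tubules re-enter the cell cycle and express proteins that healthy tubules lack, and matrix collagens accumulate between tubules and in glomeruli as diabetic kidney disease advances.

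The arrays are Affymetrix 3' expression arrays, on which a gene is read by 1 or more probe sets, groups of short probes near the 3' end of the transcript. Differences are given as log2 of diabetic sham minus nondiabetic sham, after an offset of 26.4 was added to each signal. A gene is represented by its brightest probe set, and 11206 of 18193 genes counted as expressed because their mean log2 value over the 4 arrays reached 7.06, a signal of about 107. With 1 array per group no difference has a replicate check, and no p-value is given. The agreement between different probe sets of the same gene is the internal check. It covers the error of the probes, but not that between mice, pools or arrays.

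The labelled sex matched the arrays. On the sham arrays the 3 probe sets of Xist, the RNA that coats the inactive X, read between 1985 and 14743, and the 9 probe sets of 3 Y-linked genes read between 0.6 and 56.3. The mouse insulin gene Ins2 had signals of 21.0 and 23.1, and the transgene was not analysed here. The median signal was 107 on the nondiabetic and 115 on the diabetic sham array. The bacterial hybridisation controls, which are added after labelling, were 1.24-fold higher on the diabetic sham array (geometric mean of 18 probe sets, all 18 higher), and 18S ribosomal RNA was 1.32-fold higher (3 probe sets). The ratio of 3' to 5' signal was 2.78 and 3.72 for beta-actin and 0.897 and 1.01 for GAPDH on the nondiabetic and diabetic sham arrays. The part of these array features in the gene differences was not tested.

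Most genes had nearly the same signal on both sham arrays. The median log2 difference of the 11206 expressed genes was 0.01 (SD 0.33 across genes), and 92.5% of genes lay within 1.5-fold. At least 2-fold higher in diabetic mice were 89 genes (0.794%) and at least 2-fold lower were 50 (0.446%). At 1.5-fold, 489 genes were higher (4.36%) and 350 lower (3.12%), 7.49% in all. With the log2 values of each array centred on their median over all probe sets, 67 genes were 2-fold higher and 71 lower (at 1.5-fold, 329 and 556). This centring moved the median difference of expressed genes to -0.08. Quantile normalisation gave 79 higher and 52 lower (at 1.5-fold, 448 and 366). The excess of higher genes thus depends on how the arrays are scaled. The 2-fold genes were mainly dim: they made up 2.65% of the tertile of expressed genes with the lowest signal, 0.669% of the middle tertile and 0.401% of the brightest. Of the 89 higher genes, 46 lay under the filter signal on the nondiabetic sham array, and of the 50 lower genes, 20 lay under it on the diabetic sham array.

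**Figure D1:**
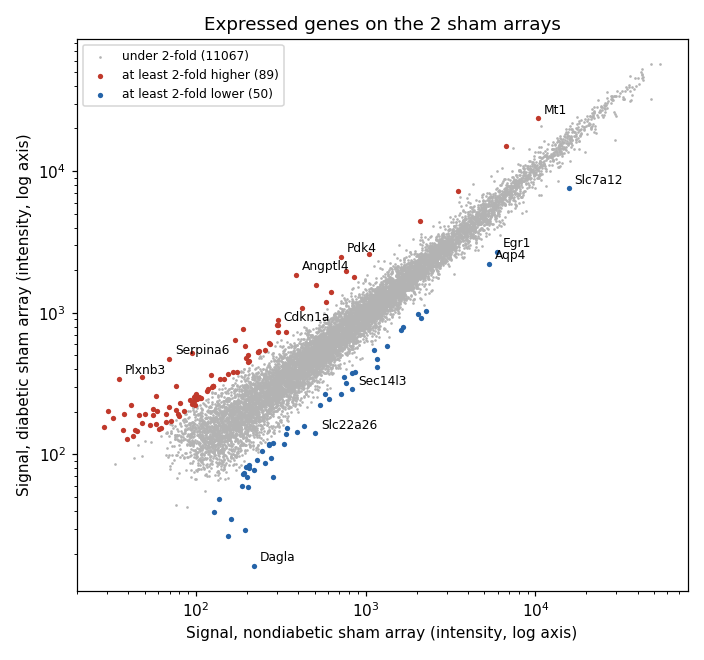
Signal of each of the 11206 expressed genes on the nondiabetic sham array (x axis) and on the diabetic sham array (y axis), both as intensity on log axes. Red points are the 89 genes at least 2-fold higher in diabetic mice and blue points the 50 at least 2-fold lower, on the scale with the offset. Most coloured points sit at the dim end, while Mt1 and Slc7a12 stand out among bright genes.

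Of the expressed genes, 4924 had at least 2 expressed probe sets. The pooled SD of the log2 difference between probe sets of the same gene was 0.30, and it was 0.35, 0.29 and 0.25 in the dimmest, middle and brightest tertile of these genes. Where the brightest probe set was at least 2-fold higher (13 genes), the next brightest was also higher in 11, with a median of 0.49. Where it was at least 2-fold lower (12 genes), the next brightest was also lower in 11, with a median of -0.65. Below 1.5-fold the sign was shared by 56% of higher and 63.6% of lower genes. Most 2-fold differences (22 of 25) thus kept their direction in another probe set, but their size was smaller there, and differences under 1.5-fold often did not keep their sign. Genes with a single expressed probe set were 2-fold different more often (1.81%) than genes with several (0.508%). The 2 groups of genes were not matched for signal, and 2-fold differences were found mainly among dim genes.

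All expressed probe sets were at least 1.5-fold higher in 21 genes (0.426% of 4924) and at least 1.5-fold lower in 16 (0.325%). These were 12 and 34 genes after median centring, and 20 and 18 under quantile normalisation. In the separate pools of uninephrectomised mice, 19 of the 21 higher genes found without either step were also higher in diabetic mice (median log2 difference 0.85). Of the 16 lower genes 10 were also lower (median -0.21). Over all 11206 expressed genes, 5445 were higher and 5759 lower in uninephrectomised diabetic mice, with a median of -0.01. Of the 76 genes at least 2-fold higher on a single expressed probe set, 43 were higher in uninephrectomised mice (median 0.16), and of the 38 lower ones 21 were lower (median -0.24). These single probe set counts lie not far from the split over all expressed genes.

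The cell cycle inhibitor gene Cdkn1a, which encodes p21, was the highest of the genes with agreeing probe sets. Its brighter probe set had signals of 302 in the nondiabetic and 815 in the diabetic sham pool, and its dimmer probe set had signals of 19.7 and 291. The differences were 1.36 and 2.78, so both probe sets were well apart, though the dimmer one started under the filter signal. Bbox1, the last enzyme of carnitine synthesis, had signals of 195 and 588 (differences of 1.26 and 1.47 in its 2 probe sets). It was no higher in uninephrectomised diabetic mice, with signals of 300 and 302. Adm encodes adrenomedullin, a vasodilator peptide, and its probe sets differed by 1.11 and 1.14, with signals of 271 and 617 in the brighter one.

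Of the other 12 genes with the highest agreeing differences, several encode regulators and surface proteins. Cebpb and Cebpd, transcription factors of the C/EBP family that respond to inflammation and hormones, differed by 0.80 and 0.91 and by 0.69 and 0.90. Their brightest signals were 833 and 1464 for Cebpb and 753 and 1231 for Cebpd. Tnfrsf12a, the receptor of the cytokine TWEAK, differed by 0.75 and 1.92, with signals of 133 and 578 in the probe set that differed more. Slc45a3 and the organic anion transporter gene Slco4a1 had nearly equal values in their probe sets (0.82 and 0.84, and 0.80 and 0.84). Niban1, a stress-induced gene, differed by 0.77 and 1.20, Chpf2, a chondroitin synthesis gene, by 0.94 and 1.18, and Lyz1, a lysozyme gene whose probes may also read its paralog Lyz2, by 0.66 and 0.69. Acot2, Col3a1, Rrm2 and Cdc20 complete these 15 genes.

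Among genes lower in all probe sets, Slc22a26, an organic anion transporter gene, had signals of 506 in the nondiabetic and 141 in the diabetic sham pool. Its probe sets differed by -1.67 and -2.38. Sec14l3, which encodes a lipid-binding protein, was lower in 3 probe sets (-1.44 to -2.08), with signals of 835 and 288 in the brightest. On the nondiabetic and diabetic uninephrectomy arrays Sec14l3 had signals of 421 and 368 (-0.18), so its nondiabetic sham signal stood apart. Aqp4, a water channel of the basolateral membrane of tubule cells, was lower in 3 probe sets (-1.06 to -1.36). Its signal was 5296 in nondiabetic sham mice and 2221 in diabetic sham mice, and it was 2305 and 2596 in nondiabetic and diabetic uninephrectomised mice. In this probe set the nondiabetic sham array was the one that stood apart. Abcb1a, which encodes the drug efflux pump P-glycoprotein, was lower by both probe sets (-0.96 and -1.52), and in uninephrectomised mice as well (-1.11).

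Other genes lower in every expressed probe set were Chrdl1, a BMP antagonist gene (-0.82 and -1.11), Apom, the apolipoprotein that carries sphingosine 1-phosphate (-0.70 and -0.80), and Pkia, an inhibitor of protein kinase A (-0.75 and -0.86). Syn3, a synapsin gene, differed by -0.70 in both probe sets and Fam149a by -0.73 and -0.75. Apom and Syn3 were also lower in uninephrectomised diabetic mice (-1.45 and -1.09), whereas Chrdl1 and Pkia were not (0.22 and 0.34). Hif3a, an inhibitory subunit of the hypoxia-inducible factors, had signals of 194 and 29.1 in its brightest probe set and of 159 and 73.7 in the next (differences of -1.99 and -0.89).

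**Figure D2:**
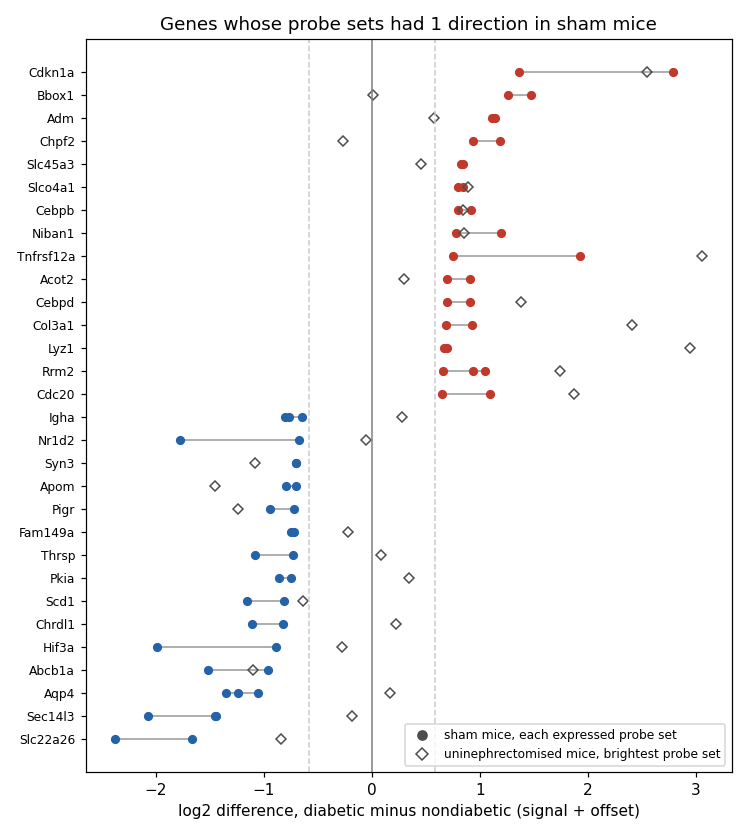
The 15 genes with the highest and the 15 with the lowest agreeing differences. Filled circles give the log2 difference between diabetic and nondiabetic sham mice in each expressed probe set, joined by a line, and open diamonds the difference of the brightest probe set in uninephrectomised mice. Dashed lines mark 1.5-fold. The diamonds of Tnfrsf12a (3.06), Lyz1 (2.94) and Col3a1 (2.40) lie beyond the sham values, while those of Bbox1 (0.01) and Aqp4 (0.17) lie near 0.

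The 15 highest genes regardless of agreement each had only 1 expressed probe set. For 13 of them the nondiabetic sham array had the lowest of the 4 signals, and in 11 it lay under the filter signal. In uninephrectomised diabetic mice 8 of the 15 were also higher, a share near that of all expressed genes. Plxnb3, a plexin receptor gene, had signals of 35.2 and 341 on the sham arrays and of 314 and 119 on the nondiabetic and diabetic uninephrectomy arrays. Lce1h and Fbxo42 were likewise high on 3 arrays, with signals of 47.9 in nondiabetic sham mice against 354, 405 and 174, and of 94.9 against 517, 509 and 528, on the diabetic sham and the nondiabetic and diabetic uninephrectomy arrays. For these genes the differences of 2.58, 2.35 and 2.16 rest on a low signal on 1 array. Npy (1.73), Abcg4 (1.81), Susd5 (1.78) and Adamtsl2 (1.76) also had their lowest signal on the nondiabetic sham array. Serpina6, which encodes corticosteroid-binding globulin, stood apart on the other side: its signal was 474 on the diabetic sham array and between 54.9 and 101 on the other 3 arrays. Ntrk2, a neurotrophin receptor gene, was higher in both diabetic pools, with signals of 30.2 and 202 on the sham arrays, against 87.6 and 232 on the uninephrectomy arrays. Mtarc1 and Pmf1 differed by 1.88 and 1.68.

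Among the 15 lowest genes the diabetic sham array had the lowest of the 4 signals in 14, and it lay under the filter signal in 9. Dagla, a synthetic enzyme of endocannabinoids, had a signal of 16.4 on the diabetic sham array and of 219, 231 and 188 on the nondiabetic sham and the nondiabetic and diabetic uninephrectomy arrays. Gpr153, Kptn, Mfsd4b4, Ap4m1 and the nuclear receptor gene Nr0b2 showed the same arrangement, with diabetic sham signals between 26.5 and 69.6. Their differences of -1.32 to -1.77 were not seen in uninephrectomised mice, where they lay between -0.27 and 0.03. Slc22a30, an organic anion transporter gene of the same family as Slc22a26, had signals of 720 and 268 (-1.34). Slc9a8, a sodium-hydrogen exchanger gene, had a difference of -1.44 that other probe sets shared only in part (-0.89 and 0.40), and Gm6958 had -1.30 and -0.06. Gps2 (-1.33), Ppp1r10 (-1.31) and the lymphocyte surface gene Cd52 (-1.30) complete the group.

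**Figure D3:**
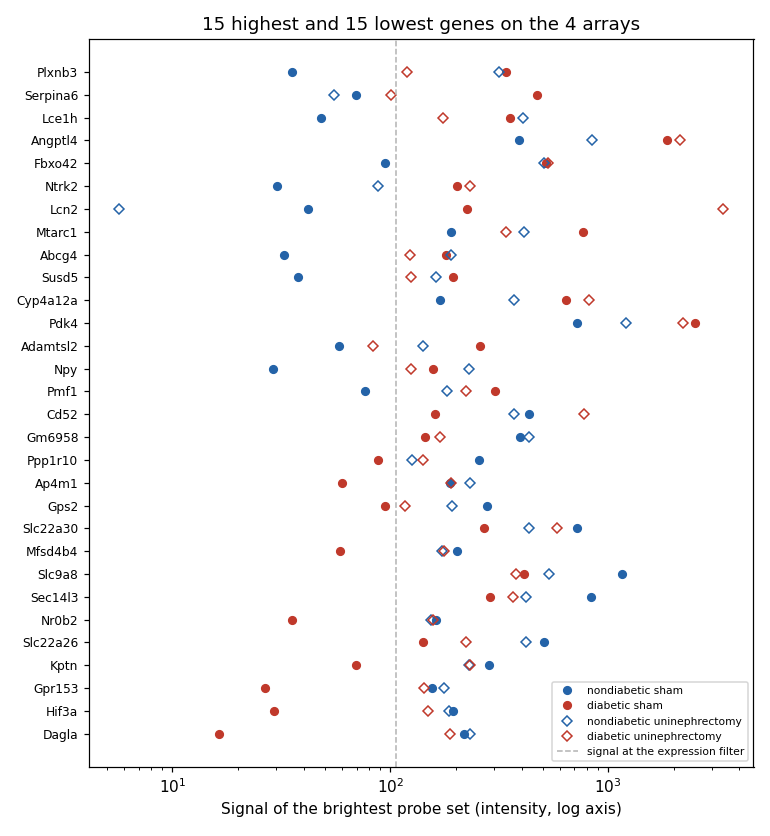
Signals of the 15 highest and 15 lowest genes on all 4 arrays (intensity, log axis). Circles are sham and diamonds uninephrectomised mice, blue nondiabetic and red diabetic; the dashed line is the signal at the expression filter, 107. Blue circles stand alone on the left for genes such as Plxnb3 and Fbxo42, and red circles for Dagla, Gpr153 and Nr0b2.

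Groups of genes with a known role are described by counts and medians over their expressed members, with no test of the group. The background to read them against is the 4.36% of expressed genes that were 1.5-fold higher, the 3.12% that were 1.5-fold lower and the median of 0.01. As the lists were chosen with earlier results of these data known, a share above this background is a description and supports nothing by itself.

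Angptl4, Pdk4 and Cyp4a12a led the list of fatty acid oxidation genes and targets of the lipid-sensing receptor PPARA. Of 35 listed genes 27 were expressed, of which 24 had a positive difference, 8 were at least 1.5-fold higher and 1 was lower (Bdh1, a ketone body enzyme, -0.60), and their median was 0.31. Angptl4, a secreted inhibitor of lipoprotein lipase, had signals of 389 in the nondiabetic and 1858 in the diabetic sham pool, and of 839 and 2139 after uninephrectomy (differences of 2.18 and 1.32). Pdk4, the kinase that turns off pyruvate dehydrogenase and so spares glucose, had signals of 716 and 2496, and of 1212 and 2201 after uninephrectomy (1.76 and 0.85). Both genes were high on both diabetic arrays. The fatty acid hydroxylase genes Cyp4a12a and Cyp4a14 differed by 1.77 and 0.95, and probes of this family may read several near-identical members. Acot2, a mitochondrial acyl-CoA thioesterase gene, had 2 agreeing probe sets (0.91 and 0.69), with signals of 1581 and 2989 in the brighter. The list median in uninephrectomised mice was -0.14.

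Fat cell markers differed in both directions. Of 18 listed markers 10 were expressed, 4 were at least 1.5-fold higher and 2 lower, and their summed signal was 85032 in nondiabetic and 81739 in diabetic sham mice. Scd1, also a lipid synthesis gene, carried much of this sum, and without it the sum was 55635 and 65031. Car3 differed by 0.97, 0.53 and -0.01 in its 3 expressed probe sets, Plin4 by 0.82 and Adipoq, which encodes the hormone adiponectin, by 0.74. The signals of Adipoq were 817 and 1380 on the sham arrays, against 66.2 and 294 on the nondiabetic and diabetic uninephrectomy arrays. Those of Car3 were 7398 and 14558 against 1229 and 2874, so both markers also varied widely between the surgeries. The 4 higher markers were Car3, Plin4, Fabp4 and Adipoq, which differed by 1.21, 0.56, 1.33 and 1.79 in uninephrectomised mice. The 2 lower ones, Scd1 and Slc36a2, differed there by -0.64 and -0.48. Over all expressed markers of the list, the median in uninephrectomised mice was -0.01. Fabp4, a fatty acid carrier of fat cells and endothelium, was higher in all 4 of its probe sets (0.33 to 0.76). Cidea and Ucp1, known from brown fat, had lower signals in diabetic sham mice (254 and 83.1, and 69.1 and 15.9), and Lep, which encodes leptin, had signals of 29.1 and 9.6. These 3 genes were below the expression filter and are named after their values were seen. The part of adipose tissue in the differences of lipid genes was not tested.

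Some genes of lipid synthesis were lower, among them Scd1, Srebf1 and Fasn. Of 21 genes of fatty acid and triglyceride synthesis, all expressed, 5 were at least 1.5-fold lower and 0 higher, while 7 had a positive difference (median -0.13). Scd1, the stearoyl-CoA desaturase, had signals of 29397 and 16707 in its brighter and of 1275 and 558 in its dimmer probe set (-0.81 and -1.16). Srebf1, the transcription factor that drives the pathway, had signals of 2033 and 1004 on the sham arrays, against 1912 and 1045 on the uninephrectomy arrays, differences of -0.999 and -0.86. Thrsp, a lipogenic gene, was lower in both probe sets (-1.09 and -0.73), Fasn, the fatty acid synthase, by -0.71 and Acaca, acetyl-CoA carboxylase, by -0.60. Thrsp differed by 0.09 in uninephrectomised mice, where nondiabetic mice already had a signal of 144 against 829 in nondiabetic sham mice. Among 19 expressed genes of sterol synthesis and uptake 13 had a negative difference and 1 was past 1.5-fold, Insig1 (-0.73), with a median of -0.13. Insig1 is itself a target of the sterol-sensing pathway.

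Genes of glucose metabolism differed little, mostly with a positive sign. All 15 listed gluconeogenesis genes were expressed, 12 had a positive difference, 0 reached 1.5-fold, and the median was 0.24. Their highest members were Pck2 (0.46) and the basolateral glucose transporter gene Slc2a2 (0.44). Of 15 expressed glycolysis genes 14 had a positive difference (median 0.16), and Pfkfb4, which makes the glycolytic activator fructose 2,6-bisphosphate, was the 1 gene past 1.5-fold (0.64). Slc5a10, an apical sugar transporter of the proximal tubule, had signals of 5468 and 9202 (0.75), and after uninephrectomy of 5792 and 8649 (0.58). The insulin-regulated transporter gene Slc2a4 had a difference of -0.60 in its brighter and of 0.51 in its dimmer probe set, so its direction is not settled. The 26 expressed oxidative phosphorylation genes lay between -0.05 and 0.35, with 22 positive and a median of 0.15. Under quantile normalisation the medians of gluconeogenesis and oxidative phosphorylation were 0.13 and 0.05.

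The insulin-like growth factor genes differed in opposite directions. Igf1 was lower in all 4 of its expressed probe sets (-0.35 to -0.86), with signals of 540 and 339 in the brightest. Igf2 had signals of 3521 and 7192 in sham mice (1.02) and of 1982 and 3792 in uninephrectomised mice (0.93). The list of insulin signalling and FOXO targets had 24 expressed genes, of which 3 were at least 1.5-fold higher and 1 lower, with a median of 0.10. The higher genes were Pdk4, Igf2 and Fbxo32, a ubiquitin ligase gene known from muscle wasting (0.60), and the lower gene was Igf1. Irs1, an insulin receptor substrate, was just short of the threshold (-0.57). In uninephrectomised mice Fbxo32 had -0.59 and Igf1 had 0.33.

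The metallothionein genes Mt1 and Mt2, which lie side by side and encode small proteins that bind zinc and copper, were among the brightest genes past 2-fold. Mt1 had signals of 10378 in the nondiabetic and 23635 in the diabetic sham pool, and Mt2 of 6695 and 14922. The differences were 1.19 and 1.15, and after uninephrectomy 0.56 and 0.70. A dimmer probe set of Mt1 differed the other way, with signals of 289 and 252 (-0.18), and the brighter one carries the suffix that Affymetrix gives to probe sets matching more than 1 transcript, so the direction of Mt1 rests on the choice of probe set. Of the other 6 expressed genes of metal handling 0 were past 1.5-fold, Slc30a1, a zinc exporter gene, being at 0.42 and Slc39a10, a zinc importer gene, at -0.42. Metallothioneins are known targets of the zinc-sensing factor MTF1, which binds metal response elements with the core TGCNCNC. As the bright probe sets of this adjacent pair gave similar values, the 250 bases before the RefSeq start of each gene are shown (build GRCm38.p6, plus strand, 5′ to 3′), with matches to that core on either strand in capitals. The Mt1 window is chr8:94178839-94179088 and the Mt2 window chr8:94172368-94172617.
Mt1: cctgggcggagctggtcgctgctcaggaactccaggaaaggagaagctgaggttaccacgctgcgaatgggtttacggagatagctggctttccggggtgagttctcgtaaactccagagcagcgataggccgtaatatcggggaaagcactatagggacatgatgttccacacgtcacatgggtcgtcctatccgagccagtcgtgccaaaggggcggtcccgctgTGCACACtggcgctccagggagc
Mt2: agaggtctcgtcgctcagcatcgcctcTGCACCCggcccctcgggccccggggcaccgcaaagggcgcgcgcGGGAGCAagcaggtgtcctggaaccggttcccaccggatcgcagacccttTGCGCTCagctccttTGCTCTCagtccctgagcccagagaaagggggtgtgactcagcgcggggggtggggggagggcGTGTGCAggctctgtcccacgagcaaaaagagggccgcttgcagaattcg
The Mt2 window held 5 matches and the Mt1 window 1. These counts depend on where the RefSeq start places each window. Matches outside the windows were not counted, so they do not give the number of such elements at either gene. Among all 32851 windows of this length in that table, 44.4% held at least 1 match and 0.344% at least 5. A match is a description of the letters and not evidence of binding.

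Several genes of the list of glucocorticoid targets and corticosteroid handling were higher as well. This list shares members with the lists above. Of 20 expressed genes in this list 6 were at least 2-fold higher and 0 lower (median 0.32): Serpina6, Angptl4, Lcn2, Mt1, Mt2 and Fkbp5. Serpina6, as the gene of corticosteroid-binding globulin, stands for handling. The nondiabetic sham signals of Serpina6 (69.9) and Lcn2 lay under the filter signal. The direction of Mt1 rests on the choice of probe set, so the count of 6 is not a measure of glucocorticoid response. Fkbp5, a chaperone of the glucocorticoid receptor and a sensitive target of it, had signals of 851 and 1778 in its brighter probe set and of 72.4 and 113 in the other (1.04 and 0.49). Lcn2, which encodes the injury protein NGAL, had signals of 41.7 and 224, the former under the filter signal (1.88).

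Immediate early genes, which are switched on within minutes of a stimulus, were lower for a few members. Egr1 had signals of 5930 and 2701 on the sham arrays, against 6902 and 3601 on the uninephrectomy arrays (-1.13 and -0.93). Fos had signals of 1340 and 741 on the sham arrays, against 1345 and 1338 on the uninephrectomy arrays (-0.83 and -0.01), and Ier2 differed by -0.78. Of 20 expressed genes these 3 were past 1.5-fold lower and Myc was higher (0.63), with a median of -0.15. Clock genes showed no shared direction: of 18 expressed 1 was 1.5-fold higher and 1 lower (median 0.08). The clock repressor gene Nr1d2 was lower in both probe sets, with signals of 10853 and 6780 in the brighter (-0.68) and of 379 and 91.3 in the dimmer (-1.78). Its partner Nr1d1 had signals of 106 and 172 (0.59), the former just under the filter signal, and Cry1, Cry2 and Ciart lay at 0.53, 0.50 and -0.50.

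A number of cell cycle genes had higher signals in the diabetic sham pool, many of them dim. Of 22 genes of DNA replication 18 were expressed, 8 were at least 1.5-fold higher and 0 lower, and the median was 0.47. Rrm2, a subunit of ribonucleotide reductase, was higher in 3 probe sets (0.65 to 1.05), with signals of 294 and 587 in the brightest. Cdt1, a replication licensing factor, had signals of 256 and 542 (1.01), and Uhrf1, which maintains DNA methylation at the fork, of 48.1 and 168 (1.38). Gins2 differed by 0.75 and Fen1 by 0.78 and 0.29 in 2 probe sets. With only the probe sets that lack the suffixes _s, _x and _a, the median of the replication list was 0.08, so its size rests partly on the choice of probe sets. Only 7 of 21 mitosis genes were expressed. Of these 4 were 1.5-fold higher (median 0.82): Mki67, the proliferation marker (signals of 69.4 and 215), Cdc20, an activator of the anaphase-promoting complex (1.10 and 0.65 in 2 probe sets), Ccnb2 (0.85) and Ube2c (0.82). Of the 8 replication genes 3 and of the 4 mitosis genes 2 lay under the filter signal on the nondiabetic sham array. Dim members that passed the filter only through an array on which they were high had to differ, so these counts support nothing by themselves. With the filter and the choice of probe set taken from the 2 sham arrays alone, the replication median was 0.38. That filter still counts the diabetic sham signal, so it cannot remove this selection.

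Targets of p53 and cell cycle inhibitors had a median of 0.11 over 19 expressed genes, 3 being 1.5-fold higher and 1 lower. Besides Cdkn1a these were Bbc3, which encodes the apoptosis inducer PUMA (1.01, signals of 79.7 and 187), Ccng1 (0.71, with 0.27 and 0.38 in its other probe sets) and the death receptor gene Fas (-0.75). The nondiabetic sham signal of Bbc3 lay under the filter signal.

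Of 18 expressed markers of tubular injury, 7 were at least 1.5-fold higher and 0 lower, and 16 had a positive difference (median 0.42). Of the 7, the nondiabetic sham signals of Lcn2, Cd44 and Fgb lay under the filter signal, so they passed it through arrays on which they were high. Cd44, a hyaluronan receptor, had signals of 45.9 and 117 (0.99). The fibrinogen gene Fgb differed by 0.99, with signals of 99.8 and 224. Of 6 expressed urothelial and renal pelvis markers 3 were 1.5-fold higher (Sprr1a 0.92, Upk3a 0.75, Trp63 0.70) and 1 was lower (Upk2 -0.68). The nondiabetic sham signals of Upk3a (103) and Trp63 (92.8) lay under the filter signal, so this count supports nothing by itself.

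Col3a1, Col6a2 and Col4a1 were the collagen genes past 1.5-fold. Of 18 expressed chain genes 15 had a positive difference, 3 were at least 1.5-fold higher and 0 lower (median 0.40). Col3a1, a fibrillar collagen, had signals of 1122 and 2150 in its brighter probe set and of 106 and 187 in its dimmer one (0.92 and 0.69). Col4a1, a chain of all basement membranes, had signals of 2243 and 3428 (0.61, and 1.07 in its other probe set). Col6a2 differed by 0.95 and 0.38 and Col1a2 by 0.55 and 0.40. The collagen median was 1.09 after uninephrectomy. Of 20 expressed matrix glycoproteins, proteoglycans and crosslinking enzymes 4 were 1.5-fold higher and 1 lower (median 0.33). Sparc, a collagen-binding protein, was higher in 3 probe sets (0.42 to 0.71), with signals of 2105 and 3456. Loxl1 and Tnc differed by 0.63 each and Ccn2, which encodes connective tissue growth factor, by 0.62. Eln, the elastin gene, was lower (-0.84, signals of 247 and 126). Matrix proteases and their inhibitors had a median of 0.00 over 13 expressed genes, none past 1.5-fold. In the TGF-beta and BMP list 3 of 24 expressed genes were 1.5-fold higher: Tgfb1 (1.22, signals of 66.9 and 192), Grem1, a BMP antagonist (0.78), and the activin subunit gene Inhbb (0.70). The nondiabetic sham signals of Tgfb1 and Inhbb (89.1) lay under the filter signal, so they passed it through arrays on which they were high. Only 1 of the 2 probe sets of Tgfb1 was expressed. The list median was -0.01. Markers of mesangial cells, pericytes and smooth muscle lay between -0.29 and 0.54, with 11 of 12 positive (median 0.23).

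Proximal tubule markers were described by segment, with no test of a difference between segments. The 18 markers of its first segments, all expressed, lay between -0.21 and 0.44, with none past 1.5-fold (median 0.11). Of 16 expressed markers of the straight last segment 5 were 1.5-fold lower and 1 higher (median -0.06). Slc7a12, an amino acid transporter gene, had signals of 15691 and 7573 (-1.05), and Cyp7b1, a sterol hydroxylase gene, differed by -0.93 and -0.20 in 2 probe sets. Slc22a19 and Slc22a7, both organic anion transporter genes, had -0.75 and -0.71. They are relatives of Slc22a26 and Slc22a30, and probes of this family may read more than 1 member. Cyp2e1, an ethanol- and ketone-metabolising enzyme, was higher, with signals of 4267 and 8126 (0.93). In uninephrectomised mice Slc7a12 had -0.26 and Cyp2e1 -0.05.

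Genes of amino acid transport and breakdown differed in both directions. Among 21 expressed transporter genes 2 were 1.5-fold higher and 3 lower (median 0.21). Slc6a15, a neutral amino acid transporter gene, had signals of 2131 and 914 on the sham arrays, against 1776 and 823 on the uninephrectomy arrays. Slc43a2, an exporter of large neutral amino acids, was higher in 3 probe sets (0.49 to 1.09), and Slc38a3, a glutamine transporter gene linked to ammonia production, differed by 0.74. Of 30 expressed breakdown enzymes 3 were 1.5-fold lower and 0 higher (median 0.03): Agmat (-1.04), Cbs, the first enzyme of transsulfuration (-0.95 and -0.15 in 2 probe sets), and Hpd (-0.59). Agmat had signals of 573 and 266, and in uninephrectomised mice of 381 and 169.

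Markers of later nephron segments differed little. Loop of Henle markers lay between -0.49 and 0.38 (11 expressed, median -0.06), and distal convoluted and connecting tubule markers between -0.46 and 0.45 (14 expressed, median 0.00). Of 14 principal cell markers Aqp4 was the 1 past 1.5-fold, and Aqp2, its apical counterpart, lay at 0.30. Of 14 expressed intercalated cell markers 10 had a negative difference and 1 was 1.5-fold lower, the proton pump subunit gene Atp6v1c2 (-0.67), with a median of -0.16. Their median in uninephrectomised mice was -0.64. Among 16 expressed podocyte markers 1 was past 1.5-fold, the transcription factor gene Tcf21 (-0.60, but 0.22 in its other expressed probe set), with a median of -0.11. Nphs1, which encodes nephrin, lay at -0.54, Thsd7a at -0.53 in both of its probe sets, and Synpo at 0.53. Of 16 expressed endothelial markers Esm1 was past 1.5-fold: its signals were 1370 and 674 in sham and 1306 and 674 in uninephrectomised mice (median of the list 0.03). Polyol pathway and osmolyte genes lay between -0.38 and 0.48, and 0 of 12 reached 1.5-fold (median 0.05).

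Among the members of the cytochrome P450 list with the largest differences, Cyp24a1 and Cyp27b1 act on vitamin D. Both were higher in diabetic sham mice, and they do not stand for all vitamin D genes. Cyp24a1, which breaks down active vitamin D, had signals of 1047 and 2582 in sham mice but of 3820 and 2005 in uninephrectomised mice (1.28 and -0.92). Cyp27b1, which makes active vitamin D, had signals of 185 and 386 on the sham arrays, against 139 and 818 on the uninephrectomy arrays (0.96 and 2.36). Of 20 expressed P450 genes 6 were 1.5-fold higher and 2 lower (median 0.15). Cyp26b1, which breaks down retinoic acid, differed by 1.06.

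In the vasoactive and natriuretic list 1 of 13 expressed genes was past 1.5-fold. Corin, the protease that activates atrial natriuretic peptide, had signals of 329 and 119 on the sham arrays, against 150 and 49.7 on the uninephrectomy arrays (-1.29 and -1.21). The list median was -0.00. The hypoxia list had a median of 0.17 over 21 expressed genes, with Adm the 1 gene higher and Hif3a the 1 gene lower past 1.5-fold.

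Igha, the constant region of immunoglobulin A, was lower in 3 probe sets (-0.65 to -0.81), with signals of 2352 and 1370 in the brightest. Jchain, which joins immunoglobulin A molecules, had signals of 874 and 486 (-0.81). Pigr, which carries the joined antibody across epithelia, was lower in both probe sets (-0.95 and -0.72), with signals of 2204 and 1131. After uninephrectomy Pigr was again lower with diabetes (-1.24), while Igha and Jchain were higher (0.28 and 0.75). These genes do not stand for the lymphocyte and plasma cell list, of which 4 of 22 markers were expressed (median -0.24): besides Jchain these were Mzb1 (0.23), Ighm (-0.21 to 0.68 over 4 probe sets) and Sdc1 (-0.27 to 0.75 over 3). The sign of the list median turned under other choices of probe set, and Cd3e, a T cell marker, had signals of 13.9 and 14.9.

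Macrophage markers had no shared direction in sham mice. Of 18 expressed markers 1 was 1.5-fold higher, Lyz1, and 1 lower, Cx3cr1, the fractalkine receptor gene (-1.12, signals of 191 and 74.0), with a median of -0.05. In uninephrectomised mice the list median was 0.74. No antigen presentation gene reached 1.5-fold by its brightest probe set: 14 of 15 expressed had a negative difference, and the median was -0.15. The class II genes H2-Ab1 and H2-Aa each had -0.45, with -0.45 to -0.84 and -0.44 to -1.11 over 3 probe sets. Of 24 expressed interferon-stimulated genes 14 had a negative difference and 1 was past 1.5-fold, Ifi27l2a, with signals of 423 and 1073 (1.29). The list median was -0.11. Among 17 expressed cytokine, chemokine and adhesion genes 2 were 1.5-fold higher, Ccl8, a monocyte chemoattractant (1.09, signals of 102 and 246), and Icam1 (0.59). The nondiabetic sham signal of Ccl8 lay under the filter signal. Cxcl1, a neutrophil chemoattractant, differed by -0.69, -0.61 and -0.12 in 3 probe sets.

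**Figure D4:**
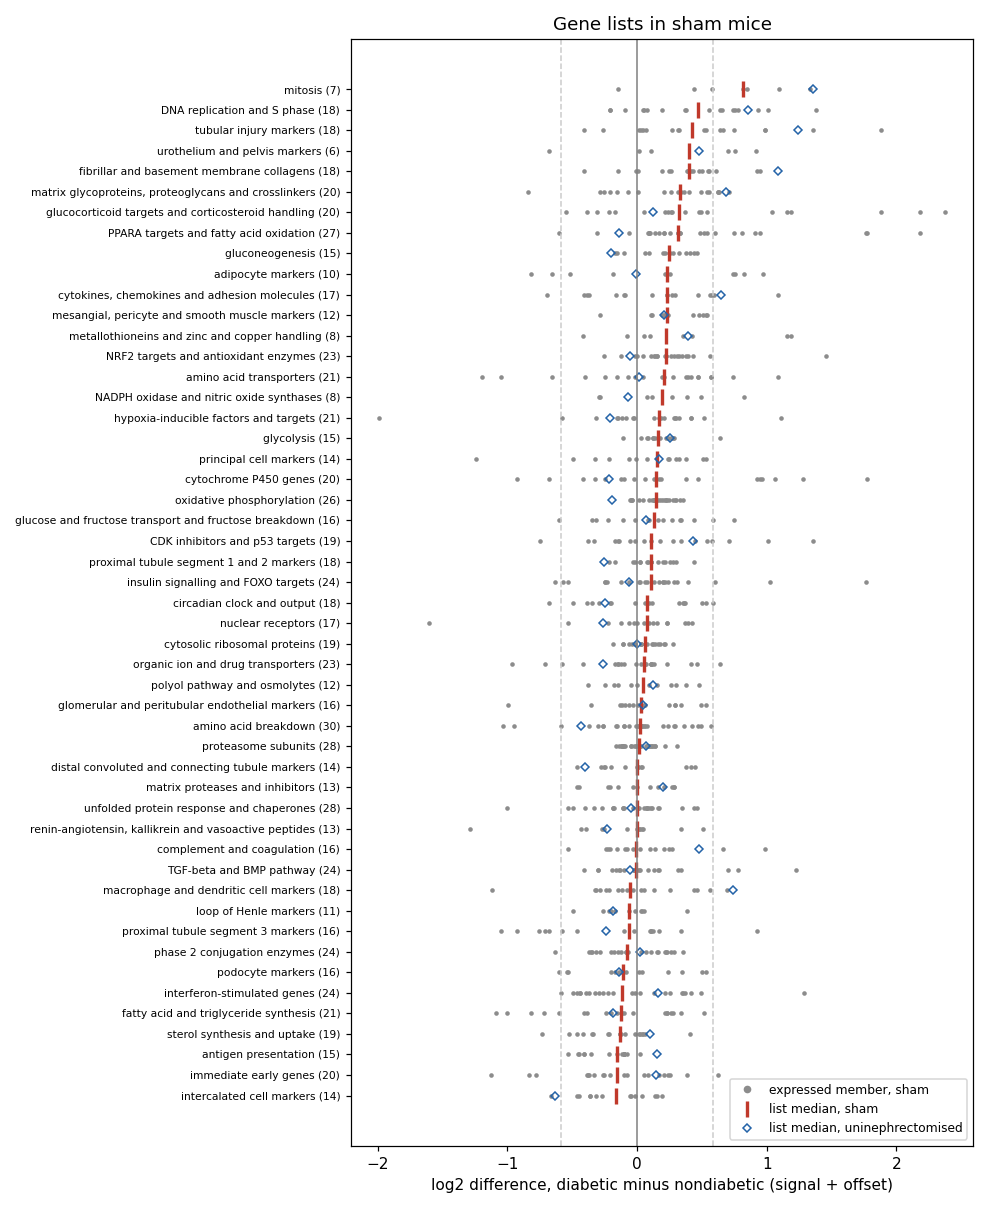
Log2 difference between diabetic and nondiabetic sham mice for the expressed members (grey points) of each list with at least 5 of them, the number of which is in brackets. Red bars are list medians in sham mice and blue diamonds those in uninephrectomised mice, and dashed lines mark 1.5-fold. The medians run from 0.82 for mitosis to -0.16 for intercalated cell markers, and those of collagens (1.09) and macrophage markers (0.74) in uninephrectomised mice lie far to the right of their sham values.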

How the data were processed

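Per the labels' protocols, TriZol extracts of frozen kidney were combined from 4 mice per group, and biotin labelling (3' IVT Express kit) started from 100 ng. The deposited values are linear intensity per probe set (45101 probe sets), already summarised per probe set by the authors. Leaving out the top and bottom 2% of values, each array averaged 500.003, which shows a common scaling. The software, with its background correction, was not given in the sources used here. Of 45037 probe sets that are not controls, 34945 had 1 gene symbol in the platform annotation, 932 had several and 9160 are unnamed here; only the first were used. Symbols were checked by gene number against a RefSeq table (GRCm38.p6), which held 34741 and changed 0.

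Signals were set on the log2(value + 26.4) scale, 26.4 being the 20th percentile of all values. The offset understates the fold of dim genes. A gene is its probe set with the highest mean over the 4 arrays, and it counted as expressed at or above the median over probe sets that are not controls (7.06). The median log2 values of the arrays were not further adjusted. With 1 array per group no test across samples was possible, and precision is limited by having so few arrays. A positive difference means higher in diabetic mice.

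The 55 gene lists and the rule for named genes were chosen with earlier results of these data known. The rule took the 15 highest and 15 lowest genes, the 15 highest and 15 lowest by the smallest difference among at least 2 expressed probe sets of 1 sign, and up to 5 members with the largest difference from each list, with metallothioneins, collagens and clock genes by value and Xist, insulin and Y-linked genes as a check of the labels. List members without a probe set of 1 symbol were not analysed here. The steps were tested on simulated data, with large differences planted only in genes well above the filter. The simulated noise was smaller than the spread between real probe sets. The simulation therefore gives no error rate for dim genes. Python 3.11.15, numpy 2.4.6, pandas 2.3.3 and matplotlib 3.10.9 were used. Alternatives were other offsets, quantile normalisation, median centring, other filters, other ways to represent a gene and a 1.5-fold threshold.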

Additional observations from a re-analysis of the deposited data

Results flagged for a closer look

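Among named genes, 3 were at least 2-fold different with diabetes in opposite directions in sham and uninephrectomised mice. This contrast of 4 arrays leaves no residual, so the difference between the surgeries was not tested. Plxnb3 differed by 2.58 in sham and by -1.23 in uninephrectomised mice, and Lce1h by 2.35 and -1.10; both had their lowest signal on the nondiabetic sham array. Cd52, a surface protein of lymphocytes, differed by -1.30 and 1.01, with its highest signal (776) on the diabetic uninephrectomy array. Control probe sets outside the gene analysis also differed between the sham arrays: 18S ribosomal RNA was 1.32-fold and the bacterial hybridisation controls were 1.24-fold higher on the diabetic one. On the nondiabetic and diabetic uninephrectomy arrays the hybridisation controls were 1.23-fold and 0.918-fold the nondiabetic sham level.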

How the results depend on the processing

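The count of 2-fold genes followed the treatment of dim signals. The 89 higher and 50 lower genes became 147 and 79 with an offset of 1, 42 and 31 with an offset of 72.5 (the 40th percentile), 852 and 442 with no filter, 18 and 16 with a filter at the 75th percentile, 137 and 114 with probe sets counted singly, and 489 and 350 at 1.5-fold. Median centring, which took the median of all expressed genes from 0.01 to -0.08, gave 67 and 71, so 48.6% of 2-fold genes were higher, against 64% before centring. Under quantile normalisation 60.3% were higher. The 37 genes with agreeing probe sets became 184 with no filter, 10 with the stricter filter and 23 with only probe sets that lack the suffixes for shared transcripts. Of the 25 genes past 2-fold that had a second expressed probe set, 88% shared its sign; this was 56.6% with no filter and 100% (4 of 4 genes) with the stricter one. The spread between probe sets was 0.48 with no filter, against 0.30. Other settings kept these counts within 1.5 times.

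For the 285 named genes, a turn of sign was counted only where the main difference was at least 1.5-fold. Smaller differences could turn uncounted. Abcc1 went from 0.46 to -0.18 and Rsad2 from 0.49 to -0.12 with the mean of expressed probe sets. Among the genes counted 1 turned its sign, Mt1, which was at -0.18 without the shared-transcript probe set. That setting also took the metal handling median to -0.0145 and that of lymphocyte markers, -0.24 before, to 0.0644; the mean of all probe sets took the latter to 0.10. With no filter the adipocyte median became -0.19 and that of adrenal markers 0.0046 (before, -0.40, over 3 markers), and the stricter filter took the cytokine median to -0.10; the cause was not tested beyond the change in genes counted. No paired analysis was possible because each group has 1 array. Pooling leaves the spread between animals unmeasured.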

Other observations

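Stress and housekeeping lists had few members past 1.5-fold in sham mice. Of 23 expressed NRF2 targets and antioxidant genes 20 had a positive difference (median 0.22), and the 1 past 1.5-fold was Aldh1a7, an aldehyde dehydrogenase gene, with signals of 306 and 885 (1.45). Of 8 expressed genes of NADPH oxidases and nitric oxide synthases Ncf1 was past 1.5-fold (0.82), with a median of 0.19. The nondiabetic sham signal of Ncf1 (97.1) lay under the filter signal. The unfolded protein response and chaperone list was centred on 0.00 over 28 genes, yet Sdf2l1, a target of that response in the endoplasmic reticulum, had signals of 1115 and 544 (-1.001), Pdia4 had -0.53 and Dnajc3 -0.49. In uninephrectomised mice Sdf2l1 differed by 0.04. Ribosomal protein and proteasome genes lay between -0.19 and 0.31, and 0 of 19 and 0 of 28 reached 1.5-fold (medians 0.06 and 0.02).

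Drug handling genes had medians near 0. Of 23 expressed organic ion and drug transporters Abcc2, an apical efflux pump, was 1.5-fold higher (0.64) and 2 were lower, Abcb1a and Slc22a7, with a median of 0.05. Of 24 expressed conjugation enzymes 1 was past 1.5-fold, Ugt3a1 (-0.63), with a median of -0.08. Complement and coagulation genes had a median of -0.01 over 16, with the fibrinogen genes Fgb (0.99) and Fgg (0.66) past 1.5-fold. Nuclear receptor genes had a median of 0.07 over 17, Nr0b2 being the 1 past 1.5-fold. Of 16 expressed genes of glucose and fructose transport 1 was higher and 1 lower past 1.5-fold (median 0.13). Of 4 expressed markers of liver, pancreas and muscle Apoa2 was 1.5-fold higher (0.76), and of 2 erythrocyte markers Hbb-b2, a haemoglobin gene, was lower (-0.71). The nondiabetic sham signal of Apoa2 (106) lay just under the filter signal. Only 2 markers of neutrophils, mast cells and platelets were expressed (median -0.11).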
